A study of Mus musculus with 6 samples.

Results

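Cerebellins are secreted proteins of the C1q family that bridge the synaptic cleft. On the presynaptic side they bind neurexins, and on the postsynaptic side they bind the delta receptors, which are relatives of the ionotropic glutamate receptors that serve in synapse adhesion. Cbln1 is best known from the cerebellum, where granule cells release it onto Purkinje cells, and other cerebellins and Grid1 act at forebrain and midbrain synapses. The 7 genes described are the cerebellins Cbln1, Cbln2, Cbln3 and Cbln4, the delta receptor gene Grid1 and the neurexin genes Nrxn2 and Nrxn3, of 26852 genes in the deposited table. They were chosen by their place in this adhesion complex together with the deposited mean of the Lmx1b conditional knock-out (cKO) libraries and the mean of the control libraries, and with earlier results of these data known. The comparison of their values between cKO and control libraries is therefore a description, with no test.

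RNA was sequenced from dissected midbrains of C57Bl/6 mouse embryos at E14.5 (embryonic day), in 3 libraries of Lmx1b cKO embryos (Lmx1b fl/fl, Pitx3-Cre) and 3 libraries of control embryos (Lmx1b wt/wt, Pitx3-Cre). Each library was a pool of a pair of embryos, and embryos came from several litters. All 6 libraries carried the Cre transgene at the Pitx3 locus, so that 1 copy of Pitx3 was altered in the controls as well. Pitx3 is expressed in mesodiencephalic dopaminergic (mdDA) neurons, so cells of the other midbrain types kept Lmx1b in the cKO, and in such bulk tissue fewer cells of a type and less RNA per cell cannot be told apart. The table gives the 2 group means of normalized counts (reads divided by a size factor per library). Because reads are whole numbers, the reads of each library were recovered from these means, for 26670 genes and all 7 described. The recovered genes held 24197499 to 29327502 reads per library, which is a part of each library's total. Recovered libraries have a known genotype and an unknown sample number, and are called replicates a, b and c in order of falling size factor.

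Lmx1b itself had 1371 ± 102 (SD, n = 3) normalized counts in cKO pools and 1398 ± 66.6 in control pools, over all of its exons, so the gene total did not separate the groups. Markers of the dissected tissue were present in every library, with Gad1, which makes GABA, at 5889 to 6767 and Slc17a6, the vesicular glutamate transporter of midbrain neurons, at 5333 to 6656 normalized counts. Hindbrain Hox genes stayed at or under 5.31. Control replicate a stood apart. It had 74.3 normalized counts of Atoh1, a rhombic lip gene that was 0 in all 3 cKO libraries and in control replicate b and 2.16 in control replicate c, the highest level of each of the 4 cycling progenitor genes (sum 4584, against 2489 to 3712 in the other libraries), and 621 of the Y-linked gene Ddx3y against 1797 and 1818 in the other control libraries and 894 to 1089 in the cKO. The authors' mean of Xist, which is expressed in female cells, was 25521 in the cKO and 13592 in the control. The mix of sexes in the pools may thus differ between the groups, and its part in the values was not tested. The cKO replicate c had the highest level of each of 8 bone and mesenchyme genes, with a sum of 13461 against 408 to 1931 in the other libraries. The 3 serotonergic genes had sums of 193 to 466 in the cKO and 497 to 638 in the control, and 3 of 3 were lower at an unadjusted p under 0.05 in limma, as were 1.62% of the 16995 genes tested.

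Neurexins enter the cerebellin complex through a short alternative exon at splice site 4. Cerebellins bind neurexin forms that include it, while several other ligands favour the forms without it. Gene counts add forms with and without this exon, so the Nrxn2 and Nrxn3 values below do not say how much of the cerebellin-binding form was made. The Nrxn3 exon is shown, since it is the part of the gene that decides whether a cerebellin can bind. It is 90 bases long, all in capitals, written 5′ to 3′ on the coding strand from GRCm38.
Nrxn3: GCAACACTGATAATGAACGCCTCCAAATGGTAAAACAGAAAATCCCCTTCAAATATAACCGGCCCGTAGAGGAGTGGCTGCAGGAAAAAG
The exon lies at chr12:90199147-90199236 on the plus strand, as a coding exon inside Nrxn3. The annotation includes it in 5 of 7 coding transcripts, and 2 skip it.

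All 7 genes were measured in all 6 libraries, but at very unequal levels. Levels of different genes were compared as normalized counts per kilobase of merged exons, with the mean over the 6 libraries. Nrxn2 was the highest at 1118 ± 88.8 (SD, n = 6) per kilobase, followed by Cbln2 at 885 ± 82.0, Cbln1 at 565 ± 81.3, Nrxn3 at 423 ± 23.9, Cbln4 at 409 ± 36.8, Grid1 at 213 ± 19.7 and Cbln3 at 5.38 with a range of 2.22 to 7.79. The 6 neighbouring pairs in this order were tested by an exact sign-flip permutation test over the 6 libraries, two-sided, in which the smallest p possible is 0.03125. The pairs were set by the same means, so these p-values say only how steadily a ratio held from library to library. For 5 of the 6 pairs the first gene was higher in 6 of 6 libraries (exact permutation p = 0.03125, adjusted p = 0.0375 each), with mean ratios of 1.26 for Nrxn2 over Cbln2, 1.57 for Cbln2 over Cbln1, 1.33 for Cbln1 over Nrxn3, 1.92 for Cbln4 over Grid1 and 42.7 for Grid1 over Cbln3. Nrxn3 and Cbln4 did not differ beyond their spread, with Nrxn3 higher in 4 of 6 libraries and a mean ratio of 1.04 that ran from 0.881 to 1.19 (exact permutation p = 0.46875, adjusted p = 0.46875). Per kilobase of the longest transcript, Nrxn3 (673) stood above Cbln1 (613), in 4 of 6 libraries (exact permutation p = 0.21875, adjusted p = 0.21875), so the order of these neurexin and cerebellin genes depended on the length used. With that length Nrxn3 also stood further above Cbln4 (409), and the mean ratio of Nrxn2 over Cbln2 was 2.31.

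**Figure D1:**
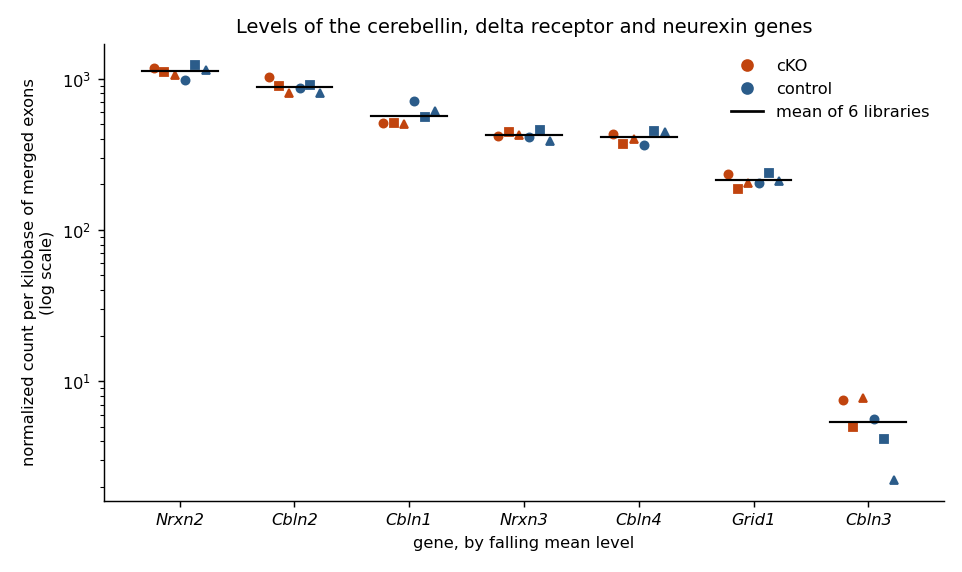
Normalized count per kilobase of merged exons (vertical axis, log scale) of each gene in each library, with genes ordered by falling mean on the horizontal axis, cKO libraries in red, control libraries in blue, and circles, squares and triangles for replicates a, b and c. Lines are means of the 6 libraries, which fall from 1118 for Nrxn2 to 5.38 for Cbln3.

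Cbln1 (ENSMUSG00000031654, chromosome 8 of GRCm38, 87468405 to 87472609, minus strand) was the 1 gene of the 7 whose groups did not overlap. It had 1537, 1551 and 1515 normalized counts in cKO pools (replicates a, b and c in this order throughout), against 2149, 1702 and 1848 in the control pools. Every cKO library lay below every control library, and the cKO mean was 0.808 times the control mean, at 1534 ± 18.0 (SD, n = 3) against 1900 ± 228. Non-overlap in this direction was found for 3.72% of the 16995 genes tested, and in the other direction for 3.88%, and nothing is read from the 1 of 7 here because the genes were chosen with this contrast in view. The limma fit gave Cbln1 a log2 fold change of -0.31, with 0.08 as its standard error (SE). The spread of the 3 cKO libraries was smaller than the 39.7 normalized counts that counting error alone gives, so the SD of 18.0 understates the error. Control replicate a held the highest Cbln1 value and also the Atoh1 and cycling progenitor values given above. Without that library the log2 fold change was -0.21 (SE 0.07), with control values of 1702 and 1848 that still lay above the cKO, and with the level of Y-linked genes as a covariate it was -0.35 (SE 0.07). The sum of the 6 rhombic lip and granule lineage genes overlapped between groups, at 6256 to 10375 in the cKO and 4864 to 8404 in the control. Zic1 alone ran from 1237 to 5579, so the sum says little about the less abundant genes. Control replicate a was highest for 2 of the 6, Atoh1 and Neurod1 (1051 against 594 to 778 in the other libraries). The part of this lineage in the Cbln1 values was not tested.

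Cbln2 (ENSMUSG00000024647, chromosome 18, 86711110 to 86718283, plus strand), which is widely expressed in brain outside the cerebellum, was the most abundant cerebellin. It had 2959, 2597 and 2321 normalized counts in cKO pools and 2519, 2640 and 2324 in control pools. The groups overlapped, with cKO replicate a above and cKO replicate c just below the control libraries, and the log2 fold change was 0.07 (SE 0.08). It ranged from -0.02 without cKO replicate a to 0.15 without cKO replicate c, so its sign turned with a single library left out. Cbln4 (ENSMUSG00000067578, chromosome 2, 172036233 to 172043466, minus strand), which binds the netrin receptor Dcc as well as neurexins, had 1254, 1080 and 1152 normalized counts in cKO pools and 1056, 1305 and 1279 in control pools. Its lowest value was in control replicate a, where Cbln1 was highest, and its log2 fold change was -0.05 (SE 0.09). Without control replicate a it was -0.15 (SE 0.08), and leaving out control replicate b gave 0.01.

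Cbln3 (ENSMUSG00000040380, chromosome 14, 55878913 to 55884392, minus strand), a cerebellin that relies on Cbln1 for its secretion in granule cells, was close to the limit of what the depth could resolve. It rested on 10 to 39 reads per library. It had 36.5, 24.3 and 37.9 normalized counts in cKO pools and 27.4, 20.2 and 10.8 in the control, with cKO replicate b inside the control range. The log2 fold change of 0.78 had an SE of 0.42, the widest of the 7, and ran from 0.45 without control replicate c to 1.09 without control replicate a. Counting error alone came to 5.80 in cKO pools and 4.29 in control pools, against SDs of 7.48 and 8.34.

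**Figure D2:**
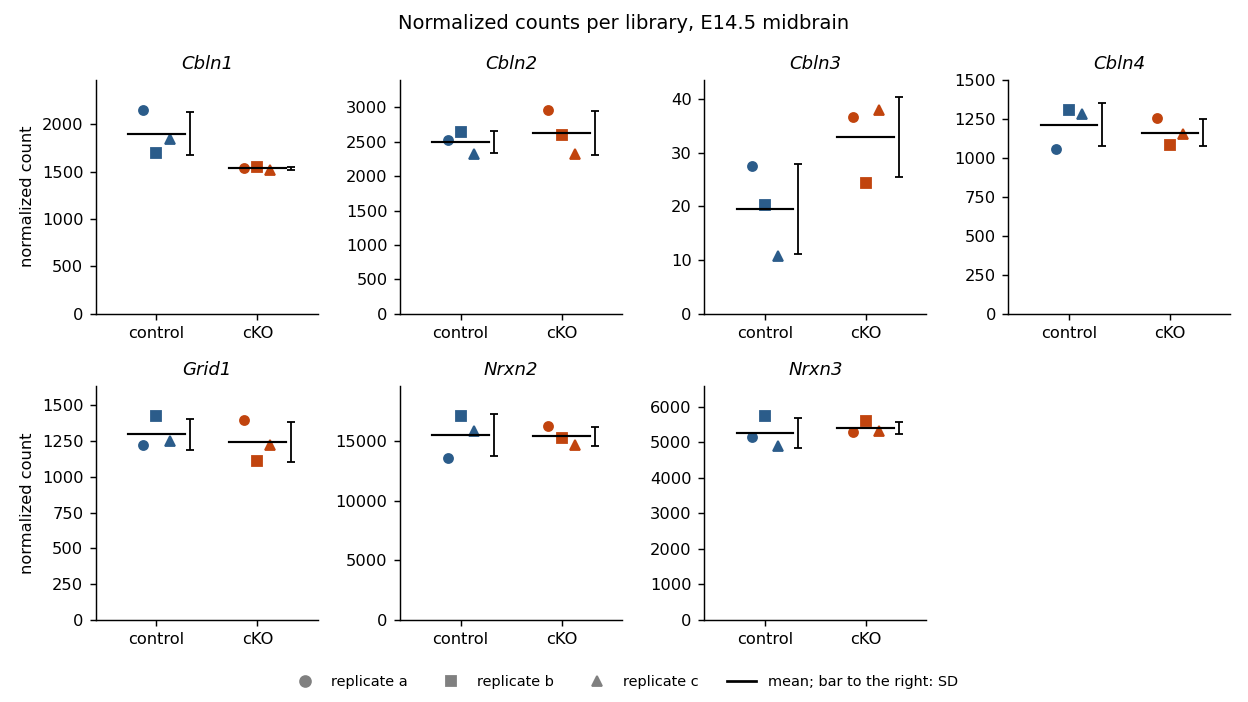
Normalized counts (vertical axes, each starting at 0) of the 7 genes in 3 control (blue) and 3 cKO (red) libraries, with circles, squares and triangles for replicates a, b and c, a line at the group mean and a bar of 1 SD to each side of it. The cKO points lie below all control points for Cbln1, and the groups overlap in the other 6 panels.

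The make-up of the cerebellin family was also expressed per kilobase. Cbln2 held between 43.3% and 52.0% of the summed cerebellin level, Cbln4 between 18.7% and 23.8%, and Cbln3 between 0.120% and 0.456%. The share of Cbln1 was 25.7%, 28.6% and 29.3% in cKO pools and 36.3%, 29.1% and 32.8% in control pools. The groups overlapped in this share, with cKO replicate c above control replicate b, and likewise in the ratio of Cbln1 to Cbln2 counts, which reached 0.653 in the cKO and fell to 0.645 in the control.

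**Figure D3:**
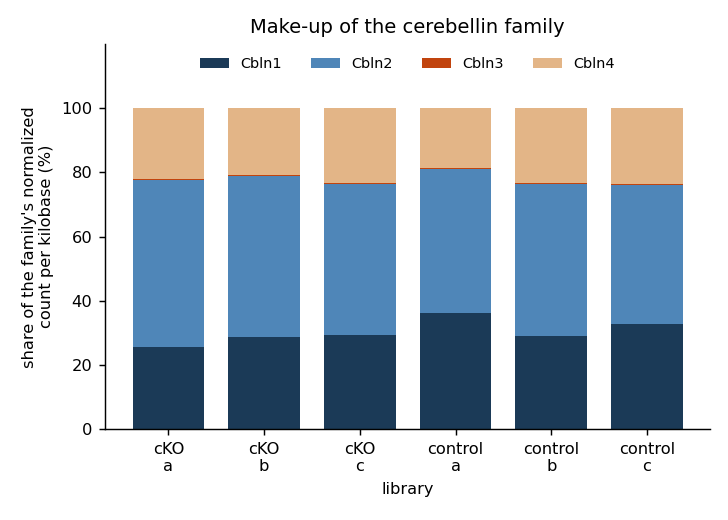
Stacked bars of the share (vertical axis, %) of each gene in the summed normalized count per kilobase of the cerebellins, with 1 bar per library on the horizontal axis. Cbln2 holds 43.3% to 52.0% of the level in every library.

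Grid1 (ENSMUSG00000041078, chromosome 14, 34820108 to 35583379, plus strand) encodes the delta receptor GluD1. Grid1 had 1394, 1111 and 1223 normalized counts in cKO pools and 1220, 1422 and 1249 in control pools. The groups overlapped, and the log2 fold change was -0.06 (SE 0.09), with a change of sign without cKO replicate b (0.02) or without control replicate b (0.01).

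Nrxn2 (ENSMUSG00000033768, chromosome 19, 6418731 to 6544169, plus strand) and Nrxn3 (ENSMUSG00000066392, chromosome 12, 88722876 to 90334935, plus strand) encode presynaptic adhesion receptors that cerebellins bind through the exon at splice site 4. Nrxn2 had 16243, 15265 and 14658 normalized counts in cKO pools and 13576, 17059 and 15815 in control pools. These rest on recovered reads, and at this count size 27 of 80 values shifted away from whole reads also had an answer. The means, 15389 ± 800 (SD, n = 3) and 15483 ± 1765, lay far closer to each other than the libraries within a group, with a log2 fold change of -0.00 (SE 0.07). Without control replicate a it was -0.09 (SE 0.05), leaving out control replicate b gave 0.08, and it kept its sign in 2 of 6 fits with 1 library left out. Nrxn3 had 5289, 5602 and 5325 normalized counts in cKO pools and 5153, 5724 and 4892 in control pools, and its log2 fold change was 0.04 (SE 0.06), or -0.01 without control replicate c. Exons of other genes on the opposite strand cover 682 (Slc22a12) and 207 (Gm14964) of the 13812 exon bases of Nrxn2 and 439 (Gm37980) of the 12605 of Nrxn3, and how the counting used the strand was not stated, so reads of these genes may be included. The cKO values of both neurexins lay within the range of the control values. The ratio of Nrxn2 to Nrxn3 per kilobase was 2.49 to 2.80 in cKO pools and 2.40 to 2.95 in control pools, so the cKO ratios lay within the range of the control ratios.

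**Figure D4:**
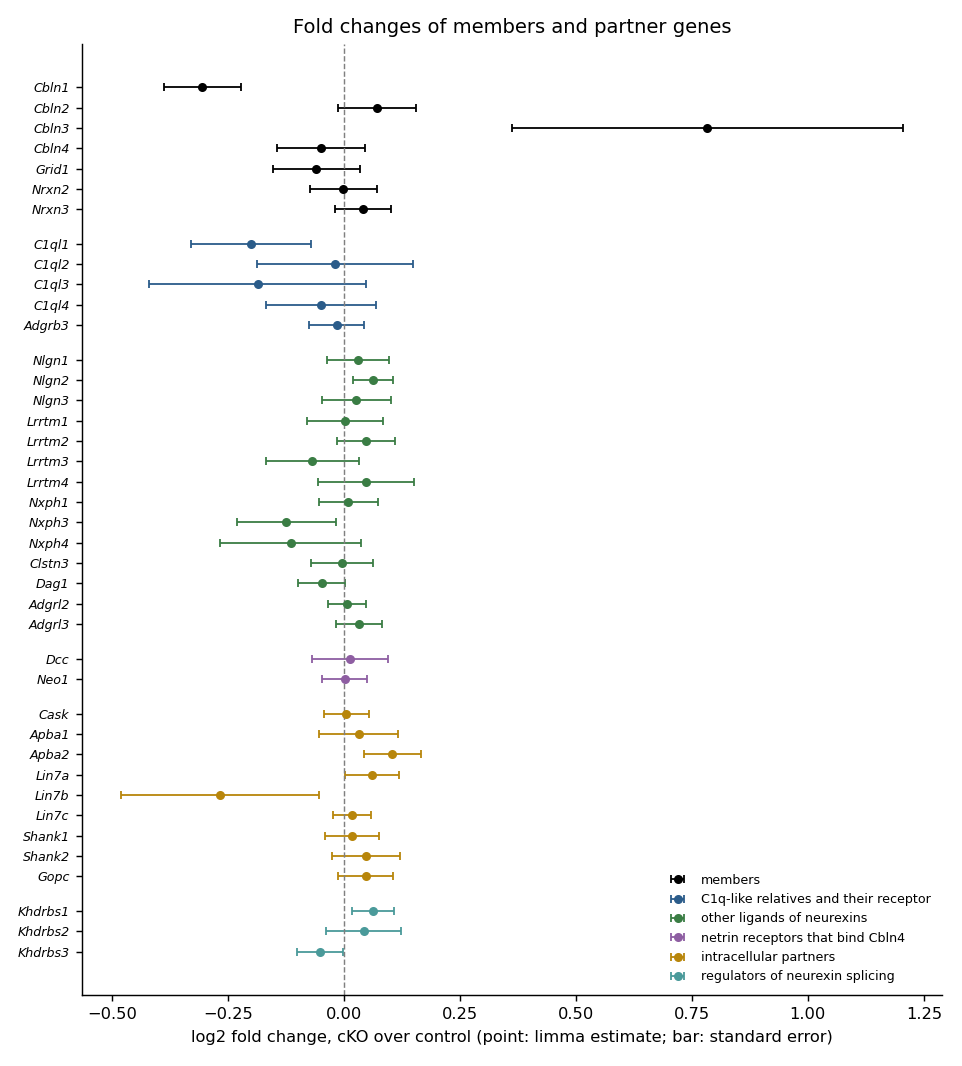
The log2 fold change of cKO over control (horizontal axis) from the limma fit, with bars of 1 standard error, for the 7 described genes (black) and 33 partner genes coloured by role (vertical axis). Cbln1 lies at -0.31, and Cbln3 has the widest bar.

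Of the 16995 genes tested with limma, 0 (0%) had an adjusted p under 0.05, and limma-trend also gave 0. At an unadjusted p under 0.05, 472 genes were called in limma, with 275 (1.62%) lower and 197 (1.16%) higher in the cKO. The partner genes reported here, 35 in 5 roles, were listed from the known biology of the complex, and 33 could be tested. Of these, 0 were lower and 0 higher at an unadjusted p under 0.05 in limma, limma-trend also called 0, and 0 had an adjusted p under 0.05. The median log2 fold change was 0.01 over the 33 partners, -0.00 over the 7 genes and 0.00 over all genes tested. Of the 7 genes, Cbln1 and Cbln3 kept the sign of their log2 fold change in 6 of 6 fits with 1 library left out, and the sign turned in at least 1 fit for each of the other 5. For Cbln1 the sign could not turn, because its groups did not overlap. The fits therefore add no support to its difference, and the share of such genes among all genes tested was not computed.

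The C1q-like relatives of the cerebellins, with their receptor gene Adgrb3 (5 genes in all), had log2 fold changes between -0.20 and -0.02, and 0 of them passed the unadjusted test. C1ql1, which instructs climbing fibre synapses in the cerebellum, had the highest level of this role at 475 per kilobase of merged exons. It had 613, 627 and 695 normalized counts in cKO pools and 605, 783 and 873 in control pools. Its log2 fold change of -0.20 (SE 0.13, unadjusted p 0.147 in limma) became -0.36 (SE 0.10, unadjusted p 0.00408, adjusted p 0.994) without control replicate a. Per kilobase of the longest transcript, Adgrb3 (736) stood above C1ql1 (475), so the highest gene of this role depended on the length used. The other ligands of neurexins numbered 16, of which 14 were tested, and their log2 fold changes lay between -0.12 and 0.06. Nxph4 was at -0.11, and leaving out control replicate b gave -0.32 (unadjusted p 0.00823 in limma, adjusted p 1.00), while leaving out control replicate a gave 0.08. Nlgn2, a postsynaptic neurexin ligand of inhibitory synapses, was the highest of the 14 at 1950 per kilobase of merged exons. It had 11459, 11477 and 11623 normalized counts in cKO pools and 10594, 11511 and 11007 in control pools. Per kilobase of the longest transcript, Adgrl2 (2234) stood above Nlgn2 (2026). Of the 2 not tested, Nxph2 had a mean under 10 normalized counts, and Adgrl1 had more reads than the recovery could search, with an authors' mean of 21915 for the cKO and 21549 for the control. The netrin receptors that bind Cbln4 differed little in their means, with log2 fold changes of 0.00 for Neo1 (SE 0.05), the higher of the pair at 1139 per kilobase, and 0.01 for Dcc (SE 0.08).

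Among the 9 intracellular partners, which anchor neurexins and delta receptors inside the cell, log2 fold changes ran from -0.27 to 0.10 and 0 passed the unadjusted test. Apba2, at the upper end, reached 0.18 once control replicate b was left out (unadjusted p 0.00456 in limma, adjusted p 1.00). Lin7c, a scaffold protein gene, was the highest at 2860 per kilobase, with 13532, 12724 and 12773 normalized counts in cKO pools and 13012, 12942 and 12604 in control pools. The 3 regulators of neurexin splicing encode RNA-binding proteins that act on the exon at splice site 4. Khdrbs1 was the highest of them at 1635 per kilobase, with 10735, 10781 and 10661 normalized counts in cKO pools and 10814, 10241 and 9750 in control pools. Their log2 fold changes lay between -0.05 and 0.06, and 0 of 3 passed the unadjusted test. Without control replicate a, Khdrbs1 went from 0.06 to 0.10 (unadjusted p 0.0354 in limma, adjusted p 0.994).

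The remaining marker lists overlapped between the groups in their sums. Their sums ran from 484 to 882 in the cKO and 456 to 674 in the control for isthmus and hindbrain, 8057 to 8208 and 7929 to 9614 for mdDA neurons, 19709 to 22810 and 17937 to 21304 for midbrain glutamatergic neurons, 18426 to 18705 and 17213 to 19565 for midbrain GABAergic neurons, 14594 to 15676 and 14427 to 15231 for 3 recovered genes of maturing neurons, and 8048 to 10091 and 6056 to 8420 for blood. At an unadjusted p under 0.05 in limma, 2 of 7 mdDA genes were lower, and 1 of 4 glutamatergic, 1 of 7 bone and mesenchyme and 2 of 4 blood genes were higher in the cKO, against 1.62% lower and 1.16% higher over all genes tested. Within the mdDA list, every cKO library lay below every control library for Pitx3, at 111 to 162 against 177 to 198. The same held for Ddc (1552 to 1608 against 1699 to 2274) and Nr4a2 (3047 to 3098 against 3126 to 3484). The groups overlapped for Th, Slc6a3, Slc18a2 and Foxa2. Non-overlap in this direction was found for 3.72% of all genes tested. The part of these cell types in the values of the cerebellin complex was not tested.

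The genes whose pattern was most like that of each of the 7 were found by Pearson's r over the 6 libraries, as a description. Cbln1 was most like Micu2 (r = 0.996) and Rnf216 (0.986), Cbln2 like B3galnt1 (0.996) and Gm37056 (0.982), and Cbln3 like Fbxo7 (0.998) and Aph1c (0.995). Cbln4 was most like Sv2c (0.989), and Grid1 like Rps6kc1 (0.995) and Tmem91 (0.992). Nrxn2 was most like Mapk8ip1 (0.998) and Car4 (0.997), and Nrxn3 like Etv3 (0.984) and Gm13443 (0.983). The points share library and size factor, and each named gene is one of the 2 best matches among the genes whose mean was 10 or more.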

How the data were processed

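Per the submitters' processing notes, the authors used TopHat 1.0.14, Bowtie2 2.1.0, HTSeq 0.6.1p1 and DESeq 1.10.1 with GRCm38.p4. The authors deposited 1 table with the mean normalized count (signal) of each group and of all libraries. Its ratio, log2 ratio, p-value and rank columns hold the authors' own comparison and were not used. Lines that name no gene (3) held 31.8% of the mean counts and were left out of the analysis. Means have 15 significant digits, and whole reads of each library were searched for sums of up to 50000. For 26670 genes (99.3%) a single answer was found, and these held 81.5% of the normalized counts on genes. The other 182 genes were not tested. Of 1000 values shifted away from whole reads, 5 had an answer, but so did 27 of 80 shifted values of the size of Nrxn2, so an answer is weaker evidence at such high counts. Recovery and tests were checked on simulated data. Size factors recomputed from the recovered reads differed by at most 0.0507%.

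The test was limma 3.58.1 (R 4.3.3) on recovered reads of the 16995 genes whose mean was 10 or more, weighted by voom, with genotype as its term and Benjamini-Hochberg adjustment over all genes tested. P-values measure the spread between 3 pools of embryos per group. This test fits whole reads, which the deposited means alone would not have allowed. Levels were compared in scipy 1.17.1, Python 3.11.15. Lengths, positions and exon sequences come from GENCODE on GRCm38, and 26693 genes had a symbol. Named genes are the 7 described, partners with an unadjusted p under 0.05, the highest tested partner of each role per kilobase of merged exons and the 2 most alike genes. Other partners (Adgrb3, Dcc, Nxph2, Adgrl1, Adgrl2, Apba2, Nxph4), marker genes, sex-linked genes and overlapping genes were named after their values were seen. The genes, partner list, marker lists (rhombic lip and granule lineage, isthmus and hindbrain, mdDA, glutamatergic, GABAergic and serotonergic neurons, cycling progenitors, maturing neurons, bone and mesenchyme, blood) and tests were chosen with earlier results of these data known. Some partner genes and matches are not reported here, and counts of partners cover the genes reported.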

Additional observations from a re-analysis of the deposited data

How the results depend on the processing

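The log2 fold change of each of the 7 genes moved by less than the spread within groups (1 SD of log2 values) under limma-trend, recomputed size factors, log2 of the deposited means plus 1, subtraction of the median of all genes and the Y-linked level as a covariate, which was chosen after seeing the data. With 1 library left out the sign turned in at least 1 fit for 5 of the 7. The number of genes with an unadjusted p under 0.05 was 974 with no minimum level (of 26670 tested) and 307 with a minimum of 100 (of 12763 tested), against 472, and ran from 340 to 647 with 1 library left out. With an adjusted p under 0.05 it was 1 (Cyp26b1) with the Y-linked covariate and 0 to 3 with 1 library left out. Those 3, Kdm5d, Uty and Ddx3y, are all Y-linked and came without control replicate a. Reported partners with an unadjusted p under 0.05 numbered 0 to 2 with 1 library left out, with 2 without control replicate a (C1ql1, Khdrbs1), 2 without control replicate b (Apba2, Nxph4) and 0 in the other fits. The cause was not tested. No paired analysis was possible because the recovered libraries could not be assigned to the replicate numbers that the column names of both group means list. With 3 libraries per group and 10 to 39 reads, depth limits Cbln3 most.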
